A study of Mus musculus with 16 samples.

Results

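Ceacam1 encodes a cell adhesion glycoprotein of the immunoglobulin superfamily, and its transcript was followed over every probe set that the platform annotation gives to Ceacam1 alone. There were 8 such probe sets among the 45101 of the array, and 2 further probe sets carried Ceacam1 together with Ceacam2. Basal cells of the limbal epithelium (8 arrays) and of the corneal epithelium (8 arrays) had been laser-captured from the same 8 wild-type mice, 300 cells per capture, and each sample was hybridised to 1 Affymetrix Mouse430_2 array after amplification. All groups were wild type with no treatment named, and the labels give neither strain nor age. In bulk captures of this kind, fewer cells of a type and less RNA per cell cannot be told apart.

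The protein sits on the surface of epithelial, endothelial and blood cells, binds itself and other family members on neighbouring cells, and is made with a long or a short cytoplasmic tail. The long tail carries inhibitory tyrosine motifs that recruit the phosphatases encoded by Ptpn6 and Ptpn11, through which the protein dampens receptor signalling. In epithelia it is found mostly on apical and lateral membranes, whereas the limbus, where cornea meets conjunctiva, is known as the site of the corneal epithelial stem cells. In the RefSeq gene order of GRCm38.p6, Ceacam1 lies on chromosome 7 directly beside Ceacam2, a close paralogue, with Cxcl17 on its other side. Signal from a paralogue cannot be told apart on probe sets marked _x_at or _s_at, whose probes may match related transcripts. Ceacam1 was chosen on measured values of these same arrays, taken here to be its limbal against corneal differences, so those are given as a description. Where an outcome of the fit is printed for them, it does not serve as a test.

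The arrays differed in quality by scan day and between the arrays of a mouse. Both arrays of a mouse were scanned on the same day, which was day 1 for mice 1 and 2, day 2 for mice 3 to 5 and day 3 for the remaining animals. The file headers also give a station number. It was 1 for the limbal and 2 for the corneal array in mice 1, 7 and 8, where station and site cannot be told apart. In the other mice both arrays had the same number. Median correlations between arrays across probe sets were 0.51 within day 1, 0.28 within day 2 and 0.83 within day 3. In mice 1 and 2 the 99th percentile of signal was 9261 and 10207 on limbal arrays and 5171 and 6016 on corneal arrays. It was lower on the limbal array in mice 3, 4 and 6. The ratio of the 3' to the 5' actin control was 81.5 (limbal) and 9.23 (corneal) in mouse 1, and 10.1 and 88.0 in mouse 2. The bearing of this on Ceacam1 was not tested. The corneal array of mouse 5 stood apart: Krt12, the corneal keratin gene, had a signal of 948 there (probe set 1419231_s_at) and between 58785 and 307362 on the other corneal arrays. Its median correlation with the other arrays was 0.17, the lowest of the 16. On the limbal arrays Krt12 lay between 36932 and 227253.

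The highest Ceacam1 signals came from limbal captures, and the size of the limbal against corneal difference varied widely between mice. On 1425538_x_at, the probe set with the highest mean over all arrays, the limbal captures of mice 1 and 2 gave 13494 and 8412, those of mice 3 to 5 gave 780, 376 and 1385, and those of mice 6 to 8 gave 1285, 3679 and 1696. The corneal captures of the same animals gave 94 and 68 on scan day 1, then 1055, 1665 and 1504, and lastly 867, 492 and 1098. In deposited signal the highest values, down to the 1696 of mouse 8, were thus limbal. The 2 lowest were the corneal arrays of scan day 1, and the groups overlapped in between. By place on its own array the order differed. The limbal value of mouse 8 was above 91.3% of the probe sets, and the corneal values of mice 4 and 5 above 95.6% and 93.6%. The corneal signals of mice 1 and 2 were above 20.1% and 13.1% of the probe sets on their arrays, and the limbal ones of the same mice above 99.3% and 98.9%.

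**Figure D1:**
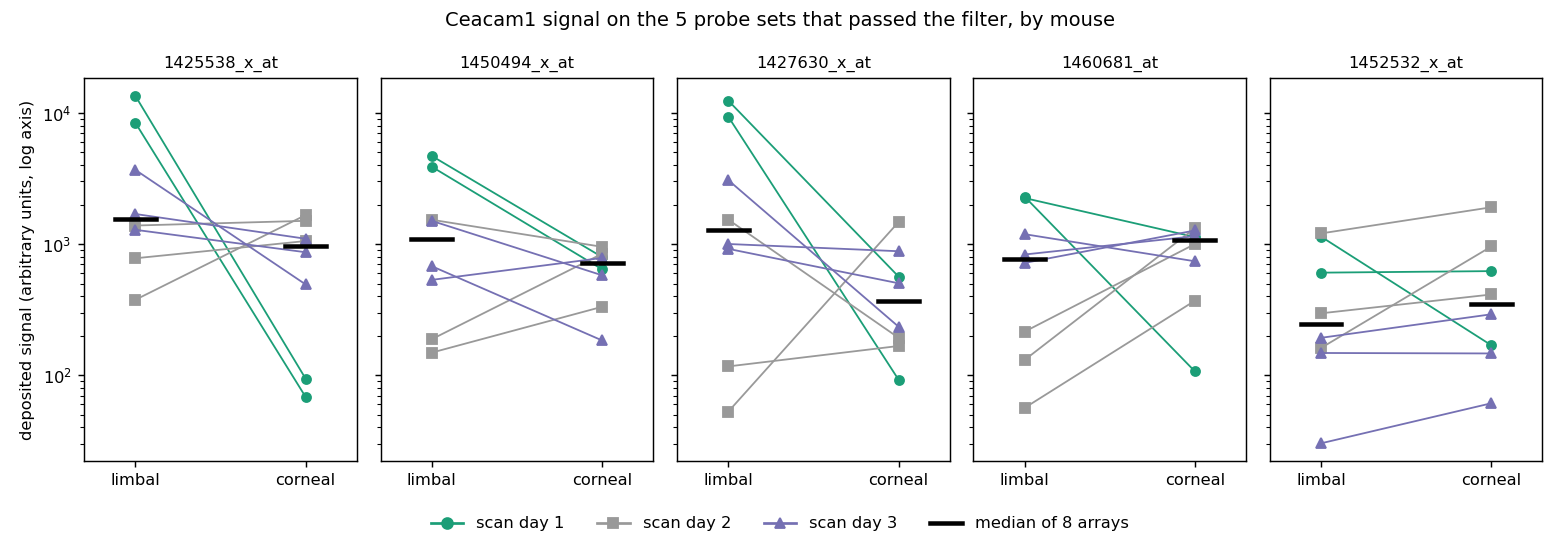
Deposited signal (log axis, arbitrary units) of the 5 Ceacam1 probe sets that passed the filter on low values, limbal on the left and corneal on the right, with 1 line per mouse coloured by scan day and a bar at the median of 8 arrays. The limbal arrays of mice 1 and 2 (scan day 1) lie at the top on 1425538_x_at, 1450494_x_at, 1427630_x_at and 1460681_at, while the lines of scan day 2 mostly rise toward the corneal side.

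On the log2(signal + 89.4) scale, in which the constant understates changes of dim probe sets, 1425538_x_at was at 11.13 ± 1.65 in limbal arrays and 9.46 ± 1.36 in corneal arrays (SD, n = 8 each). The difference, limbal minus corneal, was 1.67 ± 0.59 (SE of the limma fit with the mouse as a term), or 3.18-fold. It was positive in 5 of 8 mice, with an SD over mice of 2.95. The limma SE draws on the variance of all tested probe sets. Here it is smaller than the SD over mice alone would give, so it understates how far the mice differed. The mean differences of scan days 1, 2 and 3 were 5.98, -0.81 and 1.27. The mean over mice was 3.15 without the arrays of day 2, 1.02 without mouse 1, 1.08 without mouse 2 and 1.92 without mouse 5.

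Ordered by mean log2 signal on this probe set, limbal captures of day 1 came highest (13.39), followed by limbal captures of day 3 (11.04), corneal captures of day 2 (10.52), corneal captures of day 3 (9.77), limbal captures of day 2 (9.72) and corneal captures of day 1 (7.41). Only the ends of this order stood clear of their neighbours. Limbal captures of day 1 ranged from 13.05 to 13.73 and those of day 3 from 10.42 to 11.88. Limbal captures of day 2 ranged from 8.86 to 10.53 and corneal ones of day 1 from 7.30 to 7.52. Every other pair of neighbours overlapped. The order also depends on the scale, since the range of signal differed between scan days. By median place on the array, corneal captures of day 2 (above 93.6% of the probe sets) came before limbal captures of day 3 (91.3%).

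A second probe set of the _x_at kind, 1427630_x_at, gave nearly the same picture. Limbal signals reached 12426 and 9385 on scan day 1, stood at 1538, 53 and 117 on day 2, and at 920, 3078 and 1002 on day 3. Corneal signals of the same animals stood at 566 and 93, at 193, 1471 and 167, and at 503, 235 and 882. The corneal signal was the greater one in mice 4 and 5, and the limbal value of mouse 4 was above no more than 6.04% of the probe sets on that array. The mean was 10.50 ± 2.33 in limbal and 8.89 ± 1.06 in corneal arrays (SD, n = 8 each). The difference was 1.62 ± 0.59 (SE), positive in 6 of 8 mice, with an SD over mice of 2.92. It was 1.24 without mouse 1, 1.03 without mouse 2 and 2.34 without mouse 4.

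The third, 1450494_x_at, differed less. Its limbal signals were 4699 and 3888 in mice 1 and 2, 1532, 188 and 149 in mice 3 to 5, and 678, 1504 and 534 in mice 6 to 8. The corneal signals of the same mice were 797 and 643, then 953, 844 and 333, then 184, 578 and 784. Both limbal arrays of day 1 lay above every corneal array, and so did those of mice 3 and 7. The means were 10.05 ± 1.62 in limbal and 9.40 ± 0.66 in corneal arrays (SD, n = 8 each). The difference was 0.65 ± 0.45 (SE), positive in 5 of 8 mice, with an SD over mice of 1.54. The mean differences by scan day, 2.44, -0.65 and 0.75, had the same signs as those of 1425538_x_at.

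The remaining probe sets that passed the filter had mean differences of the opposite sign. On 1460681_at, whose identifier carries no mark for related transcripts, the limbal signals were 2299 and 2244 in mice 1 and 2, 215, 131 and 56 in mice 3 to 5, and 719, 1190 and 833 in mice 6 to 8. The corneal signals were 107 and 1132, then 1001, 1321 and 370, then 1270, 740 and 1149. The limbal arrays of day 1 were again the highest of all 16, but each limbal array of day 2 was below its corneal counterpart. The difference was -0.27 ± 0.49 (SE), positive in 3 of 8 mice, with an SD over mice of 1.99. It became 0.07 without mouse 4 and 0.80 without scan day 2.

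On 1452532_x_at the limbal signals ranged from 30.3 to 1206 with a median of 245, and the corneal signals from 61.2 to 1908 with a median of 352. The 1908 was on the corneal array of mouse 5, which stood apart, and the next corneal value was 959 in mouse 4. The groups overlapped almost entirely. The difference was -0.20 ± 0.45 (SE), with an SD over mice of 1.18, mouse 1 at 2.25, mouse 4 at -2.06 and the remaining animals between -0.63 and 0.01. It was 0.06 without mouse 4 and 0.29 without scan day 2.

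The other 3 probe sets fell below the filter on low values and were left out of the fit. On 1425675_s_at the signal ranged from 10.5 to 168 in limbal and from 20.0 to 517 in corneal arrays. On 1427712_at it ranged from 21.5 to 228 and from 15.7 to 738, the last on the corneal array of mouse 5. Neither was raised on the limbal arrays of mice 1 and 2, where 1425675_s_at had 155 and 128 and 1427712_at at most 147. On 1427711_a_at every array was at or below 165 except the limbal array of mouse 5, with 1313. Dimness on these probe sets does not show that a transcript form was lacking, since the arrays carry no detection call here and the positions of the probes were not analysed.

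**Figure D2:**
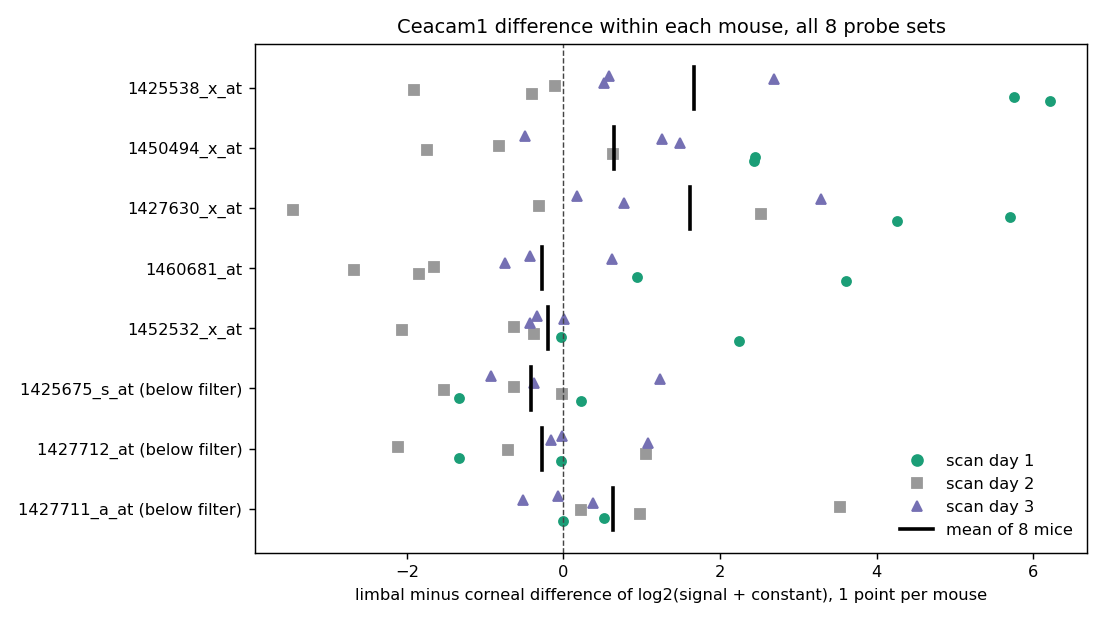
Limbal minus corneal difference of log2(signal + 89.4) for all 8 Ceacam1 probe sets, 1 point per mouse, with marker shape and colour by scan day, a bar at the mean of 8 mice and a dashed line at 0. On the 5 probe sets that passed the filter the points of mouse 1 lie between 2.25 and 6.21, and those of mouse 4 between -3.46 and -1.75.

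Read by animal, the sign of the difference was shared by the 5 probe sets in 4 of the 8 animals. All 5 were higher in limbal cells in mice 1 and 7, with medians of 3.60 and 1.25, although 1452532_x_at in mouse 7 differed by only 0.01. All 5 were lower in limbal cells in mice 4 and 5, with medians of -2.06 and -0.63. The values of mouse 5 rest on the corneal array that stood apart, with Krt12 at 948 and a median correlation of 0.17 with the other arrays. In mouse 2 there were 4 higher and 1 lower, in mouse 6 there were 3 higher and 2 lower, and in mice 3 and 8 there were 2 higher and 3 lower. Over all 27022 tested probe sets, between 43.4% and 52.8% were higher in the limbal array of a given mouse. The lowest such share was that of mouse 7. A share of single probe sets does not say how often the probe sets of a gene agree in sign. The Ceacam1 probe sets share arrays and may share target sequence, so they do not count as replicates.

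No Ceacam1 probe set passed the threshold of the fit over all 8 mice, an adjusted p of 0.05 in limma (0 of 5, against 0.0851% of all 27022 tested probe sets). At an unadjusted p under 0.05 there were 2 of 5, against 6.46% of all tested probe sets. Within scan day 1 alone 3 of 5 passed, against 0.433% of all probe sets, in a fit that rests on 2 mice. Nothing is read from these counts, because the gene was chosen with the contrast in view. Its probe sets are also not independent of each other, so their number cannot be set against a share of all probe sets.

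The mouse differences ran in parallel on the 5 probe sets even where their means had opposite signs. Over the 8 mice, Pearson's r between the differences of any 2 of them lay between 0.74 and 0.94 (10 pairs, median 0.84). Mouse 1 was the highest and mouse 4 the lowest on 1425538_x_at, 1460681_at and 1452532_x_at. Across the 16 arrays, after each scan day's mean was subtracted, r lay between 0.01 and 0.85 with a median of 0.54. The closest pairs were 1450494_x_at with 1427630_x_at (0.85) and 1425538_x_at with 1427630_x_at (0.84), and the least close was 1450494_x_at with 1452532_x_at (0.01). These correlations describe probe sets of the same arrays, and the 2 mice of scan day 1 lie far from the rest.

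**Figure D3:**
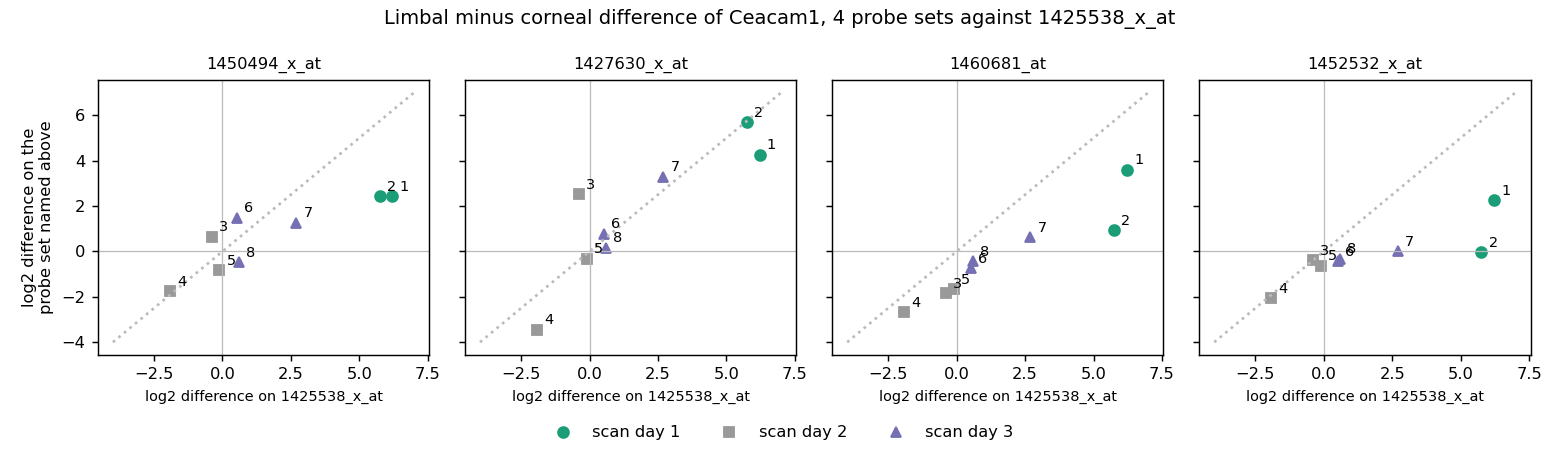
Limbal minus corneal log2 difference of each mouse (numbered) on 4 Ceacam1 probe sets against that on 1425538_x_at, with grey lines at 0 and a dotted line of equal values. Mice 1 and 2 lie far to the right at 6.21 and 5.75, mouse 4 lies lowest in each panel, and on 1460681_at and 1452532_x_at most points fall below the line of equal values.

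Among the 27021 other tested probe sets, ranked by their day-centred correlation with 1425538_x_at, 1427630_x_at stood in place 8, 1450494_x_at in place 214, 1460681_at in place 668 and 1452532_x_at in place 1821. The probe sets annotated to both Ceacam1 and Ceacam2 took places 256 (1460682_s_at, r = 0.66) and 7577 (1422123_s_at, r = 0.19). On 1460682_s_at limbal signals of 1350, 4436 and 3281 stood beside corneal signals of 545, 52.7 and 659.5 in mice 1, 2 and 7, and its mean difference was 1.11 ± 0.51 (SE). On 1422123_s_at the mean difference was 0.46 ± 0.42 (SE).

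The probe set of the paralogue was dim on the limbal arrays where Ceacam1 was highest. This single probe set of Ceacam2 alone, 1421603_a_at, was below the filter and had limbal signals of 234, 110 and 12.4 and corneal signals of 73.8, 556 and 285 in mice 1, 2 and 7. Its highest value was 1617 on the limbal array of mouse 5. The cross-reaction of this probe set with Ceacam1 was not tested.

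None of the other measured members of the carcinoembryonic antigen family passed the test. Of the 28 genes listed for the Ceacam and Psg branches, 18 had a probe set of their own and 9 passed the filter, Ceacam1 among them. Of all 13570 genes, 0.133% were called, 0.125% as higher and 0.00737% as lower in limbal cells, while 6.71% had an unadjusted p under 0.05 and 50.9% were higher in limbal cells. Among the 8 family genes other than Ceacam1, limma called 0, and 0 had an unadjusted p under 0.05. Psg21, a pregnancy-specific glycoprotein gene, differed by 0.56 ± 0.39 (SE, adjusted p = 0.87 in limma) on its brighter probe set and by 0.07 on the other. Ceacam10, a secreted family member, differed by 0.48 ± 0.51, and Psg28 by 0.41 ± 0.45, each positive in 6 of 8 mice. Ceacam9 differed by 0.15, Psg23 by -0.01, Psg19 by -0.03, Ceacam18 by -0.21 and Ceacam13 by -0.26. The highest signal on any family probe set outside Ceacam1 was 2662 in limbal and 1959 in corneal arrays.

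Genes for the partners through which the Ceacam1 tail acts did not pass the test. Of 23 listed, 15 were tested, 11 were higher and 4 lower in limbal cells, and limma called 0 (0 at an unadjusted p under 0.05, against 6.71% of all genes). Their median difference was 0.17, beside 0.01 over all 13570 genes. Ptpn6 and Ptpn11, the phosphatases that bind the inhibitory motifs, differed by 0.21 ± 0.41 and -0.75 ± 0.46 (SE). Flna, which encodes the actin cross-linker filamin A that binds the tail, differed by 0.61 ± 0.47, and Fasn, the fatty acid synthase gene, by 0.42 ± 0.41. Tlr2, a receptor whose signalling Ceacam1 restrains in human airway epithelium, had a difference of -0.42 ± 0.41, being higher in the limbal cells of 1 mouse. The adjusted p in limma lay between 0.84 and 0.93 for Ptpn11, Flna, Tlr2 and Fasn, which had the smallest p-values of the list.

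Transcription factors reported to act on CEACAM1, mostly from human cells, also stayed below the threshold. Of 16 listed, 12 were tested, 7 were higher and 5 lower, and limma called 0 (2 of 12 at an unadjusted p under 0.05, Mitf and Usf2, against 6.71% of all genes). Their median difference was 0.41. Mitf, the pigment cell factor, had a difference of 1.11 ± 0.44 (SE, adjusted p = 0.64 in limma), with 7 of 8 mice higher. Usf2, a factor that binds E-boxes, differed by -0.88 ± 0.42 (adjusted p = 0.77) and Ppara, a nuclear receptor, by 0.89 ± 0.44 (adjusted p = 0.78). Irf1, the interferon response factor, had a difference of 0.66 ± 0.40, with 7 of 8 mice higher (adjusted p = 0.84).

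Markers of other tissues of the rim were set beside Ceacam1 mouse by mouse, since leukocytes and endothelium can also carry the transcript. Where the difference on 1425538_x_at was 6.21 and 5.75, in mice 1 and 2, the mean difference of the conjunctival epithelium list was 1.32 and 2.78, that of the stromal list 1.81 and 3.02 and that of the leukocyte list 1.84 and 1.61. In mouse 7, with 2.70 for Ceacam1, these lists differed by 2.88, 2.29 and 2.08. In mouse 6, with 0.52 on 1425538_x_at, they differed by 1.37, 4.05 and 2.39, the last 2 being the greatest of their lists. The Ceacam1 difference of mouse 6 was 1.49 on 1450494_x_at, 0.77 on 1427630_x_at, -0.75 on 1460681_at and -0.43 on 1452532_x_at. In mice 3, 4, 5 and 8 the difference on 1425538_x_at was -0.40, -1.91, -0.11 and 0.59. The conjunctival list there differed by 1.47, -1.01, 2.11 and 0.49, the stromal list by 1.08, 1.08, 0.23 and -0.15, and the leukocyte list by 0.04, 0.06, -0.32 and -0.06. The part of these cell types in the Ceacam1 signal was not tested.

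**Figure D4:**
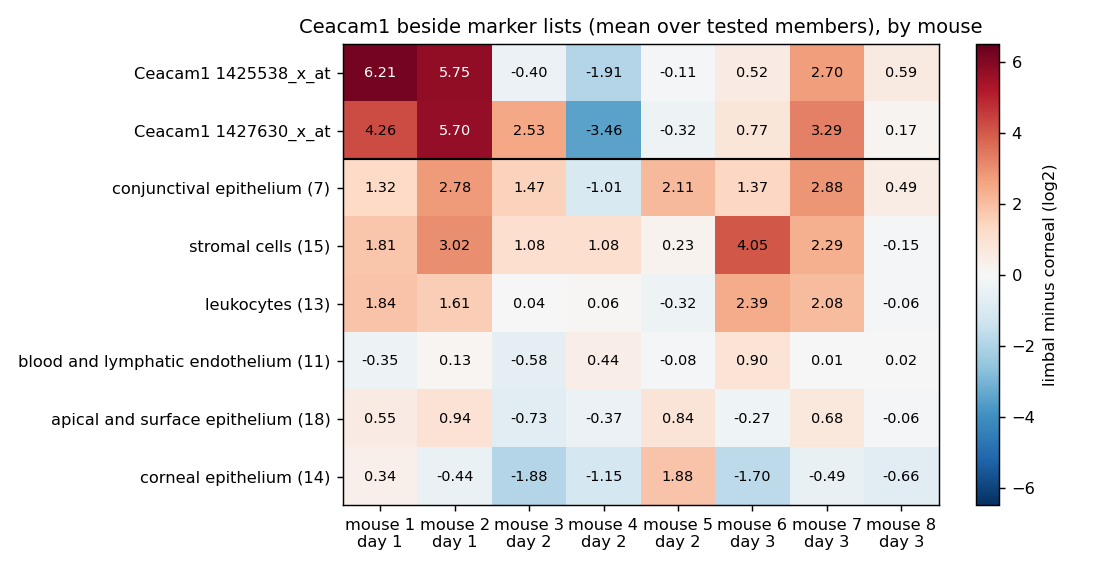
Limbal minus corneal log2 difference in each mouse for Ceacam1 on 2 probe sets (top rows) and, below the line, the mean over the tested members of each marker list (number in parentheses), with red for higher and blue for lower in limbal captures. On these 2 probe sets Ceacam1 was highest in mice 1 and 2, and the stromal (4.05) and leukocyte (2.39) lists were highest in mouse 6.

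Of the 10 conjunctival genes listed, 7 were tested, 6 were higher and Krt4, a keratin of non-cornified epithelia, was called (3.47 ± 0.53 SE, adjusted p = 0.0031 in limma). The summed signal of the list was 3678 to 92440 in limbal and 2658 to 17779 in corneal arrays. Of 16 stromal genes, 15 were tested, all 15 were higher and 3 were called (Mmp2, Col1a2 and Vim), with summed signals of 10173 to 350827 in limbal and 4010 to 36304 in corneal arrays. Of 18 leukocyte genes, 13 were tested, 11 were higher and 2 were called (H2-Aa and Lyz1), with sums of 7471 to 143369 in limbal and 2220 to 20967 in corneal arrays. Over all genes 0.133% were called and 50.9% were higher in limbal cells. With the mouse as a random block of estimated correlation, limma called 4 genes of these lists in place of 6, and 0 under quantile normalization or without mouse 2 (801 and 830 genes in all at an unadjusted p under 0.05).

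The mean of the endothelial list was near 0 in mice 2 and 7 and lower in mouse 1, where its members went both ways. Of 14 genes, 11 were tested, 6 were higher and 5 lower, and limma called 0 (2 of 11 at an unadjusted p under 0.05, against 6.71% of all genes). These were Tek and Lyve1, whose differences had opposite signs. The mean difference of the list was -0.35 in mouse 1, 0.13 in mouse 2 and 0.01 in mouse 7. Its tested members lay between -2.92 and 2.41 in mouse 1. The summed signals were 2935 to 12919 in limbal and 2880 to 17257 in corneal arrays. The defining gene Pecam1 was below the filter, with a signal of 28.2 to 907 in limbal and 16.6 to 133 in corneal arrays. It differed by 1.35, 0.10 and 0.15 in mice 1, 2 and 7. Cdh5, the endothelial cadherin gene, had 112 to 913 in limbal and 73.2 to 1245 in corneal arrays. No defining marker read 0 on any array, since the deposited signals do not reach 0. Ptprc, the common leukocyte antigen gene, had limbal signals of 135 to 2830 and corneal signals of 39.2 to 1500.

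Epithelial genes were compared in the same way. Of 20 genes of apical membranes, cell junctions and surface cells, 18 were tested, 12 were higher and 6 lower, and limma called 0 (5 of 18 at an unadjusted p under 0.05, against 6.71% of all genes, of which 50.9% were higher). Krt8, a simple epithelial keratin, differed by 1.78 ± 0.42 (SE, adjusted p = 0.10 in limma), and Cldn4, a tight junction gene, by 1.15 ± 0.42 (adjusted p = 0.57), both higher in 8 of 8 mice. Muc20, a membrane mucin gene, differed by 1.18 ± 0.47 (adjusted p = 0.64) and Slurp1, a secreted protein gene of the corneal epithelium, by -1.26 ± 0.45 (adjusted p = 0.55). Of 14 corneal epithelial genes, 14 were tested, 3 were higher and 11 lower with a median of -0.55, and limma called 0 (5 of 14 at an unadjusted p under 0.05). Ppp1r3c differed by -1.82 ± 0.43 (SE, adjusted p = 0.094 in limma) and Trp63 by -1.42 ± 0.41 (adjusted p = 0.29). Ehf differed by -1.33 ± 0.44 (adjusted p = 0.46) and Pax6 by -1.15 ± 0.42 (adjusted p = 0.55). The mean of the apical list differed by 0.55, 0.94 and 0.68 in mice 1, 2 and 7.

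The genes whose pattern came closest to that of 1425538_x_at were Acp5, Rap2c, Zkscan3, Tia1 and Enpp3. Their Pearson correlations over the 16 arrays, with scan-day means subtracted, were 0.90, 0.90, 0.87, 0.85 and 0.84, beside a median of 0.03 and a 99th percentile of 0.66 over 13569 genes. Without that subtraction they were lower and in another order, at 0.76, 0.48, 0.63, 0.70 and 0.82. Enpp3, which encodes an ectonucleotidase of the cell surface, differed by 6.01 in mouse 1, 7.06 in mouse 2 and 5.72 in mouse 7, and is one of the genes called higher in limbal cells. Acp5, which encodes tartrate-resistant acid phosphatase, differed by 4.35, 3.47 and 1.27 in the same mice. The lowest day-centred correlations were those of 0610012G03Rik (-0.87), the sodium channel gene Scn2a (-0.85) and the spindle gene Ska1 (-0.85). Without the subtraction they were -0.47, -0.60 and -0.60. All of these values lean on the arrays of mice 1 and 2, where the spread of 1425538_x_at was widest.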

How the data were processed

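Transcripts in limbal and corneal basal cell captures were measured on 16 Affymetrix arrays. The deposited table holds 1 linear intensity per probe set and array, and once the outer 2% on either side are dropped all columns average 500.0, so the authors had scaled the arrays. The algorithm is not given in the sources used here. Scaling raises background on arrays with little target. The chip type, scan day and station number were taken per the file headers. Titles gave the site letter and the mouse number.

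Values were taken as log2(signal + 89.4), where the constant is the 25th percentile over the whole table. The 64 control probe sets were left out, and probe sets with a mean above the 40th percentile were tested (27022, of which 21880 had 1 gene symbol, 619 several and 4523 none). A gene was read from its brightest such probe set with a single symbol (13570 genes). Differences were fitted with limma 3.58.1 in R 4.3.3 (mouse as a fixed term, variance trend, Benjamini-Hochberg over all tested probe sets, threshold 0.05). The mouse pairs the arrays by design. Deviations from the group means correlated with a median r of 0.26 within a mouse (above 0.1 in 7 of 8), 0.29 between mice of 1 scan day and -0.14 between days.

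The gene, the lists and the tests were chosen with earlier results of these data known. Named are all Ceacam1 probe sets, tested family genes, the 5 genes most like the brightest Ceacam1 probe set and the 3 least like it, and of each list the called members or otherwise up to 4 with the smallest p. Ceacam2, Krt12, Ptpn6 and the defining markers Pecam1, Cdh5 and Ptprc are named as well. Probe sets of several genes named no gene. The label-based replicates are separate mice. The fit was tested on simulated data. Alternatives covered the mouse term (statmod 1.5.0), constant, normalization, filter, variance trend, array weights, single scan days and each mouse left out. The fit without scan day 2 was added after the data were seen. The number of arrays limits the precision. No genome was used.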

Additional observations from a re-analysis of the deposited data

Results flagged for a closer look

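One value stood apart from its group by Dixon's gap criterion, applied to the limbal and the corneal arrays of the 8 Ceacam1 probe sets (16 groups of 8). On 1427711_a_at the limbal array of mouse 5 had a log2 signal of 10.45 (signal 1313), a gap of 2.47 to the next limbal array and 0.64 of the whole range, above the limit of 0.526. Chance flags about 1 in 20 such groups, and 1 of 16 was flagged here. This probe set was below the filter on low values, and its mean difference of 0.63 rests on that array.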

How the results depend on the processing

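The differences of 1425538_x_at (1.67), 1450494_x_at (0.65) and 1427630_x_at (1.62) were positive in 22 of 23 alternatives each, the exception being scan day 2 alone (-0.81, -0.65 and -0.42). Leaving out 1 mouse gave 1.02 to 2.18, 0.39 to 0.99 and 1.03 to 2.34. The differences of 1460681_at and 1452532_x_at were negative in 20 of 23 alternatives each, with -0.83 to 0.07 and -0.55 to 0.06 when 1 mouse was left out. They were positive without mouse 4, without scan day 2 (0.80 and 0.29) and on scan day 1 alone. In this balanced design a change of the mouse term, the filter or the variance trend cannot move a difference. Those alternatives are counted among the 23 and do not bear on its stability. Scan day 1 alone gave 5.98, 2.44, 4.98, 2.27 and 1.11 on these 5 probe sets in the order named. That fit rests on 2 mice and called 1 gene of the family list, which is Ceacam1 itself, chosen on this contrast, so nothing is read from it. Without the mouse in the model (no replicate block) the 5 differences were necessarily the same (1.67, 0.65, 1.62, -0.27 and -0.20). With quantile normalization they were 1.31, 0.74, 1.42, -0.22 and -0.24.

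Calls over all genes depended on most choices: 18 in the model as reported, 0 without the replicate block, 0 with quantile normalization, 4 with a constant of 1, 11 with a constant of 16, 8 with a filter at the 60th percentile, 83 with array weights, and 78, 0 and 0 on scan days 1, 2 and 3 alone. Where limma called 0, 431, 801, 515 and 1457 genes had an unadjusted p under 0.05, in the same order. Leaving out 1 mouse gave 0 (without mouse 2) to 43 (without mouse 8), and 4, 9, 4 and 7 in the absence of mouse 1, 3, 6 or 7. Of the marker list genes 6 were called, against 0, 0, 1, 3, 2, 15, and 16, 0 and 0 under those settings, and 0 to 12 with 1 mouse left out. A random replicate block, with an estimated correlation, called 17 genes and 4 of the marker list. The causes were not tested. The 99th percentile of signal was 5171 to 10207, 2443 to 4908 and 14916 to 18165 on scan days 1, 2 and 3, which limits what dim probe sets can show on day 2.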
